A study of Oryctolagus cuniculus with 3 samples.

Results

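Fibrinogen beta chain (FGB), tissue factor pathway inhibitor (TFPI), antithrombin (SERPINC1), heparin cofactor II (SERPIND1) and prothrombin (F2) were followed in day 6 rabbit embryos that had been slow-frozen or vitrified as morulae. These 5 genes, of 6760 genes named in the deposited value table, were taken by name as clotting factors and their inhibitors. Their measured values were not used to choose their probes, but the genes were chosen with earlier results of these data known. Their ranks and p-values are therefore not those of genes picked without sight of the data. The array carried 10 probes for them, and 8 of these were in the value table, 4 for TFPI and 1 for each of the other genes. The remaining 2 probes, a second probe of SERPIND1 and a second probe of F2, were measured by the scanner but lie outside the table.

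Frozen embryos (Oryctolagus cuniculus) were compared directly with vitrified embryos on 3 Agilent oligonucleotide arrays with 2 colours, each array holding RNA of 1 frozen and 1 vitrified sample. All embryos were conceived by artificial insemination, recovered as morulae on day 3, cryopreserved and transferred to recipient does. The sources used here do not describe the slow freezing, vitrified morulae passed through dimethyl sulphoxide and ethylene glycol before liquid nitrogen, and both kinds of embryo were collected 3 days after transfer, on day 6. Strain, age of the does and number of embryos in a sample are not stated there, and no embryo without cryopreservation was analysed here. The labels call the arrays biological replicates. Frozen embryos were labelled with Cy5 on replicates 1 and 3 and with Cy3 on replicate 2, so that the dyes are not balanced. The 3 arrays limit the precision of every value.

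Blood clotting is a cascade of plasma proteases. Tissue factor starts it, prothrombin is cut to thrombin, and thrombin cuts fibrinogen, a protein built from alpha, beta and gamma chains, into the fibrin of the clot. TFPI, a Kunitz-type inhibitor, blocks the start of the cascade at tissue factor with factor VIIa and at factor Xa, whereas antithrombin and heparin cofactor II are serpins that trap thrombin, antithrombin with the help of heparan sulphate and heparin cofactor II with dermatan sulphate. In adult mammals most of these proteins come from the liver, with TFPI made largely by endothelium, and in rodent embryos the visceral endoderm of the yolk sac makes many plasma proteins before there is a liver.

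The probes of the array are the sequences whose hybridisation gave every value that follows, and they are printed as the scanner files give them, 5′ to 3′. Capitals mark the stop codon at the end of the FGB and F2 probes and, in TFPI, the 18 bases that all 4 probes share.
FGB: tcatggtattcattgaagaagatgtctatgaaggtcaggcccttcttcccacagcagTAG
F2: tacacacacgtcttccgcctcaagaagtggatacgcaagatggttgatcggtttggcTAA
TFPI 1: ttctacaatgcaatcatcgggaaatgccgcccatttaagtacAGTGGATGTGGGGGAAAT
TFPI 2 and 3: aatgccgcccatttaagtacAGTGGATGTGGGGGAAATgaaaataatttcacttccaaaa
TFPI 4: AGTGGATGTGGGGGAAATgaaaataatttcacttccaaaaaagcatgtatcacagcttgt
SERPINC1: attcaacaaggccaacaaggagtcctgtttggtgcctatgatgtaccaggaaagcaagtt
SERPIND1: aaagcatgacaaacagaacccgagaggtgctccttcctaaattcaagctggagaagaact

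The array's design places the FGB probe on the plus strand at chr15:10903118-10903174 and the F2 probe on the plus strand at chr1:186101907-186101966. It places the SERPINC1 probe on the minus strand at chr13:1251672-1251731 and the SERPIND1 probe on chromosome 21. The TFPI probes lie on the minus strand of chromosome 7 between 127831038 and 127831139. For these positions the sources used here name no genome build. The 4 TFPI probes hold 3 distinct sequences within 102 bases, and probes 2 and 3 are the same sequence printed as separate probes. They are therefore repeated readings of 1 stretch of 1 transcript, not 4 independent measurements. No probe of another gene name shared a run of 20 bases with any of these probes (0 probes).

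TFPI, which blocks the start of clotting, was lower in frozen than in vitrified embryos on all 3 arrays, in the direction that is likely for replicate 2. With the sign of replicate 2 turned it was lower on 2 of 3 arrays, and the mean of its brightest probe was -0.24. Its brightest probe had log2 ratios of frozen over vitrified of -0.69, -1.42 and -1.45 on replicates 1, 2 and 3. The processed signals of that probe were 8693 and 4576 units in frozen embryos, against 14020 and 12474 units in vitrified embryos, on replicates 1 and 3. Both frozen signals lie under both vitrified signals. The mean log2 ratio was -1.19 ± 0.43 (SD, n = 3), with a moderated 95% interval of -1.68 to -0.69, which is a level 2.28-fold lower in frozen embryos (interval 1.62 to 3.21).

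By limma's test of the mean ratio against 0, the unadjusted p of this probe was 0.0014 and its adjusted p was 0.81, after Benjamini-Hochberg adjustment over 22839 probes, so the difference did not pass the threshold of 0.05. No probe of the array passed it (0 of 22839, a share of 0%), while 1020 probes (4.47%) had an unadjusted p under 0.05, 599 of them lower (2.62%) and 421 higher (1.84%) in frozen embryos. This balance differed in fits with other probes, arrays or processing. With the dimmer probes left out, 206 of 11420 probes were lower and 228 higher. On replicates 1 and 3 alone, with frozen embryos in Cy5 on each, the value table gave 621 lower and 406 higher of 22839 probes. Normexp and loess of the scanner files of these arrays gave 386 lower and 546 higher of 22839. The processed signals of all 43603 probes on them gave 8173 lower and 2285 higher. All 4 TFPI probes, which share their target, were among the 599 lower probes of the value table. Of all probes, 23 (0.101%) had a lower mean ratio than the brightest TFPI probe, a gene chosen with earlier results of these data known.

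The 4 TFPI probes read nearly the same on each array. Their ratios spanned -0.69 to -0.49 on replicate 1, -1.60 to -1.42 on replicate 2 and -1.46 to -1.34 on replicate 3. Probes 2 and 3, with the same sequence, had -0.60 and -0.62 on replicate 1, -1.53 and -1.52 on replicate 2, and -1.46 on replicate 3 for each. The spread of TFPI is thus between arrays and not between probes. The means of the 4 probes lay between -1.20 and -1.14, and their limma adjusted p was 0.81 in each case.

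FGB, the beta chain of fibrinogen, was lower in frozen embryos on 2 of the 3 arrays and higher on the other. Its log2 ratios of frozen over vitrified were 0.56, -1.70 and -1.66 on replicates 1, 2 and 3. Its processed signals were 398 and 235 units in frozen embryos, against 270 and 742 units in vitrified embryos, on replicates 1 and 3. The frozen and vitrified signals overlap between arrays, and replicate 1 alone has the frozen sample above the vitrified. The mean was -0.93 ± 1.29 (SD, n = 3), 1.91-fold lower in frozen embryos, with a moderated 95% interval of -2.11 to 0.25 that includes 0. Its limma unadjusted p was 0.099 and its adjusted p was 1. A lower mean was found for 73 probes (0.32%), and the order of signs seen in FGB, above 0 on replicate 1 and below 0 on the others, was found for 3824 probes (16.7%).

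SERPINC1, or antithrombin, was lower in frozen embryos on all 3 arrays by a smaller margin. Its log2 ratios were -0.60, -0.09 and -0.37 on replicates 1, 2 and 3. Its processed signals were 86.2 and 80.2 units in frozen embryos, against 130 and 104 units in vitrified embryos, on replicates 1 and 3. The frozen signals lie under the vitrified ones without overlap. The mean was -0.35 ± 0.25 (SD, n = 3), 1.28-fold lower, with a moderated 95% interval of -0.74 to 0.03. Its limma unadjusted p was 0.067 and its adjusted p was 1, and 1231 probes (5.39%) had a lower mean. The error that Feature Extraction gives for this spot was 0.23 and 0.22 on the log2 scale for replicates 1 and 3, against ratios of -0.60 and -0.37 there. For replicate 2, with a ratio of -0.09, no such error was available.

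SERPIND1, or heparin cofactor II, had log2 ratios of -0.44, 0.35 and -0.17 on replicates 1, 2 and 3, below 0 on 2 arrays and above 0 on the other. Its processed signals were 28.9 and 27.4 units in frozen embryos, against 39.2 and 30.8 units in vitrified embryos, on replicates 1 and 3. These signals are dim. The spot stood 2.21 and 2.10 times over its local background in the frozen channel and 2.20 and 2.63 times in the vitrified channel, and Feature Extraction's error of 0.36 and 0.34 on replicates 1 and 3 compares with ratios of -0.44 and -0.17 there. The mean was -0.09 ± 0.40 (SD, n = 3), with a moderated 95% interval of -0.56 to 0.39, a limma unadjusted p of 0.66 and an adjusted p of 1. The second SERPIND1 probe, outside the value table, was not well above background in either channel of replicates 1 and 3, so no ratio is given for it.

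F2, or prothrombin, had log2 ratios of 0.35, -0.05 and -0.21 on replicates 1, 2 and 3. Its processed signals were 1103 and 717 units in frozen embryos, against 864 and 832 units in vitrified embryos, on replicates 1 and 3, and the groups overlap. The mean was 0.03 ± 0.29 (SD, n = 3), with a moderated 95% interval of -0.38 to 0.44, a limma unadjusted p of 0.87 and an adjusted p of 1. The interval leaves room for a difference in either direction. Another 5 probes of the table carry the same transcript identifier as F2 but no gene name, and they had ratios of 0.52 to 0.60 on replicate 1, -0.15 to -0.03 on replicate 2 and -0.12 to 0.08 on replicate 3. Their means were 0.11 to 0.16, with a limma adjusted p of 1. The second F2 probe, outside the table, was well above background only in the frozen channel, which was Cy5 on replicates 1 and 3. Dye and embryo group cannot be told apart in that flag. Its processed signals were 23.6 and 22.2 units in frozen embryos against 27.6 and 19.0 units in vitrified embryos on replicates 1 and 3, and no fold is given.

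**Figure D1:**
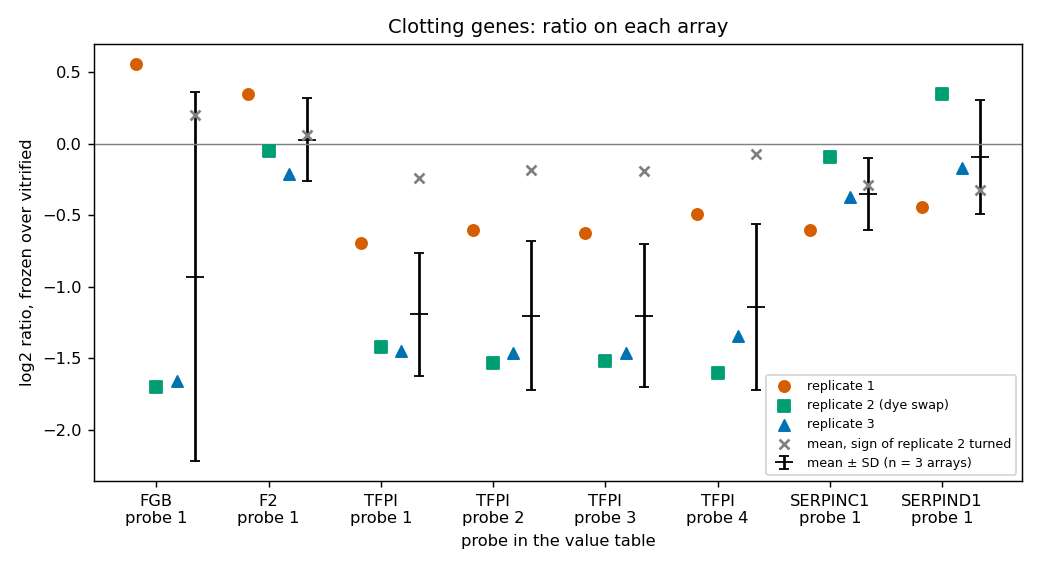
Log2 ratio of frozen over vitrified on each of the 3 arrays for the 8 probes of the 5 genes. Bars give the mean ± SD of the 3 arrays, and crosses give the mean with the sign of replicate 2 turned. The 4 TFPI probes lie below 0 on every array, and FGB lies at 0.56 on replicate 1 and at -1.70 and -1.66 on the other arrays.

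**Figure D2:**
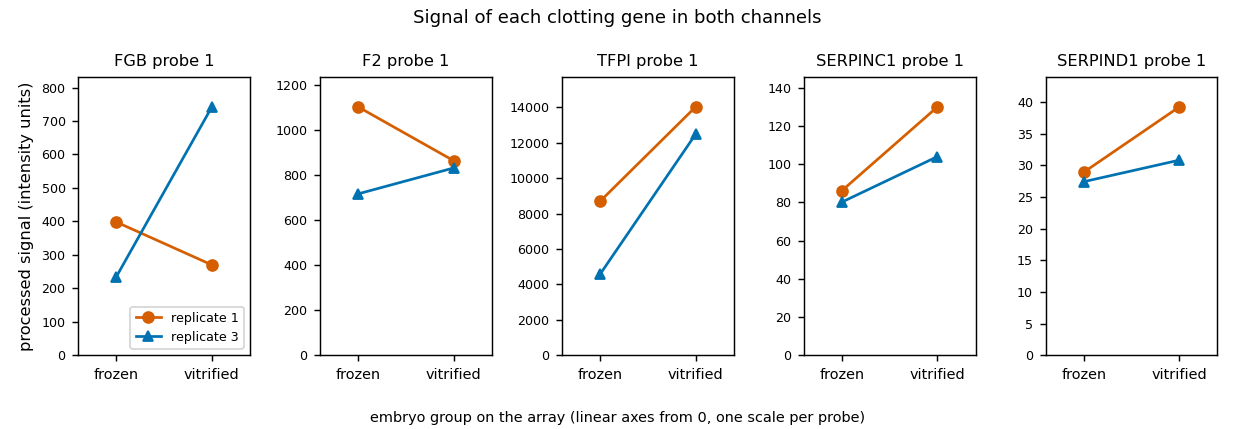
Processed signal of the brightest probe of each gene in the frozen and the vitrified channel of replicates 1 and 3. The axes are linear with a separate scale for each probe, and lines join the channels of an array. The brightest TFPI probe reads 8693 and 4576 units in frozen embryos and 14020 and 12474 units in vitrified embryos. Levels of different probes are not to be set against each other.

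Of the 8 probes, 5 were below 0 on every array (the 4 of TFPI and that of SERPINC1), where 2480 of all probes (10.9%) were, and 0 of the 8 were above 0 on every array, where 2668 (11.7%) were. By gene that is TFPI and SERPINC1, 2 of 5. A mean at least 1.5-fold lower in frozen embryos was found for 5 of the 8 probes, those of TFPI and FGB, and for 428 of all probes (1.87%). The 4 TFPI probes met both conditions, below 0 on every array and at least 1.5-fold lower in the mean, as did 284 of all probes (1.24%). Since 4 of the 8 probes read the same stretch of TFPI, these shares say little about the 5 genes as a group.

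Whether FGB and TFPI were called depended on replicate 1. Over all probes its ratios correlated at -0.36 with replicate 2 and -0.01 with replicate 3, and replicates 2 and 3 correlated at 0.48 (Pearson, across probes, which are not independent). With the sign of replicate 2 turned, replicate 2 correlated at 0.36 with replicate 1 and at -0.48 with replicate 3, so which array stands apart depends on that sign. With replicate 1 left out, limma called 796 probes at an adjusted p under 0.05 (3.49%), 553 of them lower in frozen embryos (2.42%). The brightest TFPI probe then had a mean of -1.44 and an adjusted p of 0.0023, and its adjusted p ranged from 0.0023 to 1 over 11 alternatives. FGB then had a mean of -1.68 and an adjusted p of 0.0014, in a range of 0.0014 to 1 over 10 alternatives. Of the 8 probes, 5 were called without replicate 1, those of TFPI and FGB, in a fit that rests on 2 arrays. On replicate 1 probes near the 3′ end of a transcript read 0.26 higher in log2 ratio than probes at least 500 bases upstream (median of 213 transcripts), against -0.13 on replicate 2 and -0.06 on replicate 3. The part of this in the values of FGB and TFPI was not tested.

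The direction of replicate 2 is likely but not stated, since it was read from 10 spike-in probes. Their ratios on replicates 1 and 3 had a Pearson correlation of 0.99, and those on replicate 2 ran against both. With its sign turned, the 4 TFPI probes had means of -0.24 to -0.07 and were below 0 on 2 of 3 arrays. FGB had 0.20, SERPINC1 -0.29 and F2 0.06. SERPIND1 had -0.32 and was then below 0 on all 3 arrays, as were 3010 of all probes (13.2%), with a limma unadjusted p of 0.055 and an adjusted p of 0.84. On replicates 1 and 3, the 2 arrays whose direction follows from the scanner files and the labelled dyes, TFPI, SERPINC1 and SERPIND1 were lower in frozen embryos on each, and FGB and F2 were higher on replicate 1 and lower on replicate 3.

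The 5 genes were set beside a list of 65 genes of clotting, fibrinolysis and related functions, of which 44 were on the array under a gene name and 31 were in the value table. These 31 include 5 genes for making clotting factors and 7 of heparan sulphate, with median ratios of -0.04 and 0.04. Of these 31, each represented by its brightest probe, 20 had a mean below 0 and 11 a mean above 0, where 3592 of all named genes (53.1%) had a mean below 0. The list's median log2 ratio was -0.13, and that of all named genes was -0.01. With the sign of replicate 2 turned these medians were 0.00 and -0.04. On replicates 1, 2 and 3 the list's medians were 0.07, -0.19 and -0.14. None of the 31 passed limma's adjusted p (0 genes), while 3 lower and 1 higher in frozen embryos had an unadjusted p under 0.05, where 282 of all named genes (4.17%) did. Below 0 on every array were 5 genes, and above 0 on every array were 3, where 788 (11.7%) and 719 (10.6%) of all named genes were. The signs of FGB, above 0 on replicate 1 and below 0 on the others, were found in 10 of the 31 and in 959 of all named genes (14.2%).

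**Figure D3:**
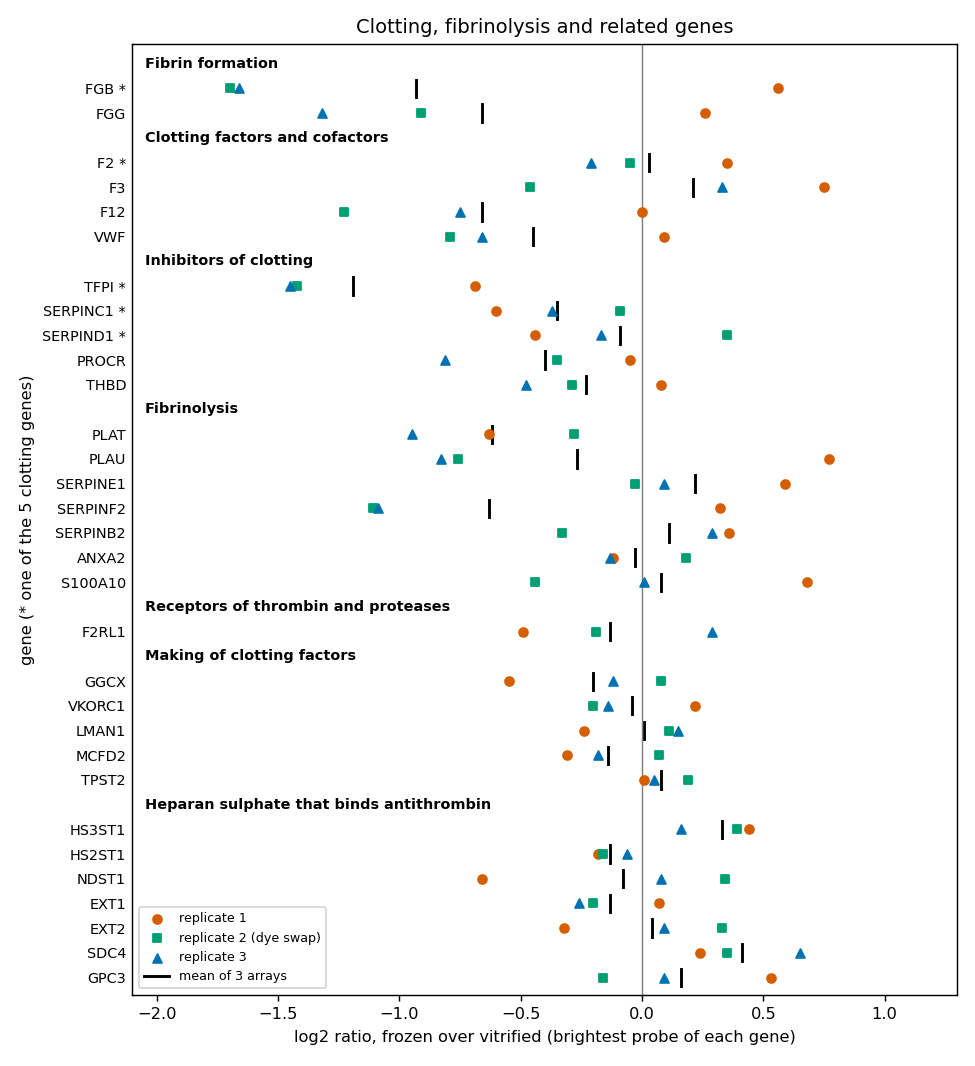
Log2 ratio of frozen over vitrified for the 31 clotting, fibrinolysis and related genes in the value table, by role and with the mean of 3 arrays. FGB, FGG and SERPINF2 lie right of 0 on replicate 1 and left of 0 on the other arrays. Means below 0 are found for all 5 clotting inhibitors and for 53.1% of all named genes. The mean of SERPIND1 is 0.02 with dye as a covariate.

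The gamma chain of fibrinogen, FGG, was the other fibrin gene in the table. Its log2 ratios were 0.26, -0.91 and -1.32 on replicates 1, 2 and 3, with the signs of FGB on each array. Its mean was -0.66 ± 0.82 (SD, n = 3) and its limma unadjusted p was 0.086. With the sign of replicate 2 turned its mean was -0.05. The alpha chain, FGA, was on the array but not in the table.

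Among the other clotting factors and cofactors, F12, or factor XII, which starts the contact pathway, had 0.00, -1.23 and -0.75 on replicates 1, 2 and 3. Its mean was -0.66 ± 0.62 (SD, n = 3), with a limma unadjusted p of 0.044 and an adjusted p of 1. VWF, or von Willebrand factor, which carries factor VIII and tethers platelets, had 0.09, -0.79 and -0.66, a mean of -0.45. Both were at or above 0 on replicate 1 and lower in frozen embryos on the other arrays. With the sign of replicate 2 turned, the means of F12 and VWF were 0.16 and 0.07. F3, or tissue factor, had 0.75, -0.46 and 0.33 on replicates 1, 2 and 3, a mean of 0.21, and its other probe had a mean of -0.03. Of the 4 clotting factors and cofactors in the table, 2 had a mean below 0 and 2, F2 and F3, a mean above 0.

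All 5 inhibitors of clotting in the table had means below 0, as did 53.1% of all named genes. The mean of SERPIND1, however, was 0.02 with dye as a covariate and 0.09 without replicate 1. Below 0 on every array were 3 of the inhibitors (TFPI, SERPINC1 and PROCR) and 11.7% of all named genes. With the sign of replicate 2 turned, these 3 are above 0 on that array, and SERPIND1 is below 0 on every array. The median of the 5 was -0.35, or -0.24 with the sign of replicate 2 turned, and 3 of the 5 are among the genes chosen here. PROCR, the endothelial receptor of protein C, had -0.05, -0.35 and -0.81 on replicates 1, 2 and 3. THBD, or thrombomodulin, which turns thrombin towards activating protein C, had 0.08, -0.29 and -0.48.

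In fibrinolysis, which dissolves the clot, SERPINF2, the inhibitor of plasmin, had 0.32, -1.11 and -1.09 on replicates 1, 2 and 3, a mean of -0.63 ± 0.82 (SD, n = 3), or 0.11 with the sign of replicate 2 turned. PLAT, the tissue-type activator of plasminogen, was lower in frozen embryos on all arrays, with -0.63, -0.28 and -0.95. Its mean was -0.62 ± 0.33 (SD, n = 3), its limma unadjusted p was 0.013 and its adjusted p was 0.89. Of the 7 fibrinolysis genes in the table, 4 had a mean below 0 and 3 a mean above 0.

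F2RL1, a receptor that proteases activate by cutting it, had -0.49, -0.19 and 0.29 on replicates 1, 2 and 3. Of the 5 genes for making clotting factors, 3 had a mean below 0 and 2 a mean above 0, with a median of -0.04. GGCX, the vitamin K-dependent carboxylase, had a mean of -0.20. MCFD2, a carrier of factors V and VIII out of the endoplasmic reticulum, had a mean of -0.14. Among the 7 genes of heparan sulphate, the sugar chain that helps antithrombin, SDC4, a heparan sulphate core protein, had 0.24, 0.35 and 0.65, a mean of 0.41 with a limma unadjusted p of 0.034 and an adjusted p of 1. HS3ST1, the sulphotransferase that makes the antithrombin-binding site, had 0.44, 0.39 and 0.16, a mean of 0.33. Both were higher in frozen embryos on every array. With the sign of replicate 2 turned they were higher on 2 of 3 arrays, with means of 0.18 and 0.07. Of the 7 genes of heparan sulphate, 4 had a mean above 0 and 3 a mean below 0, with a median of 0.04. HS2ST1 was below 0 on every array, with -0.18, -0.16 and -0.06 on replicates 1, 2 and 3.

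Another 13 genes of the list were on the array but had no probe in the value table: FGA, F7, F8, F9, F10, F11, KNG1, SERPINE2, PROC, PROS1, PLG, CPB2 and HRG. Of these, 4 (FGA, F8, PLG and HRG) were not well above background in any channel of replicates 1 and 3, and 9 were well above it in some channels. The ratios above therefore leave out most proteases between tissue factor and thrombin.

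The genes nearest to FGB over the 3 log2 ratios, by Euclidean distance among 6759 other named genes, were ANXA3, a calcium-binding annexin, at 0.241 and RBP4, the retinol carrier of plasma, at 0.313. ANXA3 had 0.39, -1.67 and -1.82 on replicates 1, 2 and 3, and RBP4 had 0.66, -1.98 and -1.76. The nearest to TFPI were further off. These were ITGA1, a collagen-binding integrin subunit, at 0.463 with -0.52, -1.07 and -1.70, and ACSL5, which activates fatty acids, at 0.557 with -0.32, -1.15 and -1.13. SERPINC1 lay nearest to SH3BGRL at 0.047 and ZNF454 at 0.062, SERPIND1 to TOE1 at 0.032 and PGD at 0.070, and F2 to DDAH1 at 0.021 and SLC6A5 at 0.028.

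**Figure D4:**
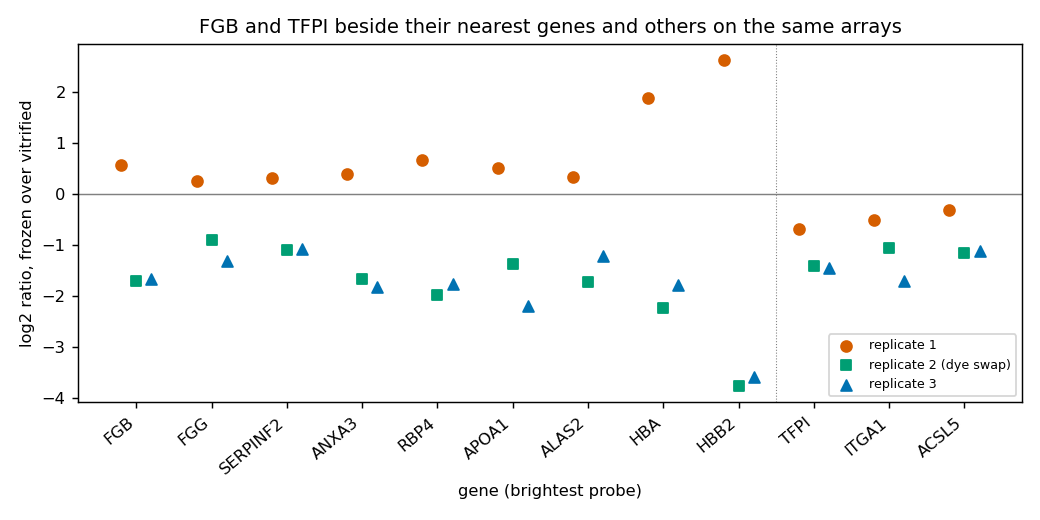
Log2 ratio of frozen over vitrified across the 3 arrays for the brightest probes of FGB, TFPI and their nearest other genes. FGG, SERPINF2, APOA1, ALAS2, HBA and HBB2 are shown beside them, and the globins HBA and HBB2 were chosen after their values were seen. FGB and its neighbours ANXA3 and RBP4 lie above 0 on replicate 1 and below -1.6 on the other arrays.

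Markers of other cell types were read beside FGB and TFPI. Of 20 markers of hypoblast and visceral endoderm, 10 were in the table, 9 of them had a mean below 0 and 7 were below 0 on every array. Their median ratio was -0.70, or -0.19 with the sign of replicate 2 turned, and it was -0.20, -0.63 and -1.19 on replicates 1, 2 and 3. Their summed signal was 5613 and 4402 units in frozen embryos, against 5764 and 11601 units in vitrified embryos, on replicates 1 and 3. The signs of FGB, above 0 on replicate 1 and below 0 on the others, were found in 2 of the 10, RBP4 and APOA1. APOA1, a plasma apolipoprotein, had 0.51, -1.38 and -2.20, while DAB2, an endocytic adaptor and the marker with a mean above 0, had 0.80, 0.15 and -0.08. AFP, TTR and ALB, plasma protein genes of the same marker list, were not in the table. The part of these cells in the values of FGB and TFPI was not tested, and in RNA of whole embryos fewer cells of a type and less RNA per cell cannot be told apart.

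Genes of blood differed in their signs. HBA and HBB2, globin genes chosen after their values were seen, had 1.88, -2.23 and -1.79 and 2.62, -3.77 and -3.59 on replicates 1, 2 and 3. ALAS2, the haem synthesis enzyme of red cells, had 0.34, -1.73 and -1.21 and was the only red cell marker of the list in the table (1 of 8). These 3 genes had the signs of FGB. The platelet markers in the table, 2 of 6, did not. ITGA2B had -0.57, -0.20 and -0.02 and TUBB1 had -0.34, -0.28 and -0.18, a mean of -0.26 each. The part of blood in the values of the 5 genes was not tested.

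Of 12 trophoblast markers 8 were in the table, with a median ratio of 0.09, or -0.06 with the sign of replicate 2 turned, and GATA3 and HAND1 had means of 0.43 and -0.28. Of 10 epiblast markers 5 were in the table, with a median of -0.52, and POU5F1 and ETV4 had means of -0.96 and -0.58. Uterine markers had 2 of 7 in the table, SCGB1A1 at -0.39 and HOXA11 at -0.44. Blood and immune cell markers had 3 of 8, with a median of 0.03, S100A9 at 0.21 (0.54, -0.15 and 0.25 on replicates 1, 2 and 3) and CD14 at -0.11 (-0.07, -0.24 and -0.01). Of 6 endothelial markers none was in the table (0 of 4 on the array), so the cells that make most TFPI in adults were not measured by their markers. The part of these cell types in the 5 genes was not tested.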

How the data were processed

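Total RNA (100 ng a sample, per the labels' protocols) of whole day 6 embryos was hybridised to 3 arrays. The software was Agilent Feature Extraction 10.10.1.1, per the submitters' processing notes. The scanner files of replicates 1 and 3 as deposited give processed spot intensities, background-subtracted and dye-normalized, a log10 ratio of red over green, and an error of that ratio, read here as a score per the file headers. For replicate 2 no scanner file was analysed here. Log2 ratios of all 3 arrays come from the authors' deposited value table, with scale, centring and direction unstated. On replicates 1 and 3 it equalled the log2 ratio of the processed intensities, frozen over vitrified, within 3e-06. Its column medians were -0.015, 0.021 and 0.017.

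Controls made up 26 of its 22865 rows. The 22839 others were all well above background on replicates 1 and 3 in each channel, and none was saturated (0 probes). There were 0 further sample columns. Names came from the symbol, RefSeq accession or gene identifier of a probe through the rabbit RefSeq gene table, which gave 14368 named probes of 6760 genes. Each gene outside the 5 was represented by its brightest probe.

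The mean log2 ratio of the 3 arrays was set against 0 by limma 3.58.1 (functions lmFit and eBayes, R 4.3.3), two-sided, with Benjamini-Hochberg adjustment over all 22839 probes and a threshold of 0.05. The fit was tested on simulated data. Tables were handled with Python 3.11.15 and pandas 2.3.3. Alternatives were the sign of replicate 2 turned, each replicate left out, dye as a covariate, other centring and scaling, an intensity trend, the dimmer probes left out, and the scanner files with normexp (offset 50) and loess.

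The genes and lists were chosen with earlier results of these data known. Genes named besides the 5 were, in each role group, the 2 with the mean furthest from 0 and any with an unadjusted p under 0.05, the 2 nearest to each of the 5, and the 2 markers furthest from 0 in each cell type list, with HBA1, AFP and SCGB1A1 wherever measured. HBA, HBB2, DAB2, HS2ST1 and F3 fall outside this rule and were chosen after their values were seen, and HBA1 was not in the table under that symbol.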

Additional observations from a re-analysis of the deposited data

How the results depend on the processing

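All 4 TFPI probes and SERPINC1 kept a mean below 0 under every alternative run (11 for each TFPI probe, 10 for SERPINC1). Several of these could not turn the sign. The probes were below 0 on every array, so leaving out a replicate keeps the mean below 0. An intensity trend or leaving out other probes does not change a probe's mean. The 4 TFPI probes also share their target. Without replicate 1 limma called FGB at -1.68 (adjusted p 0.0014) and the TFPI probes at -1.44 (0.0023), -1.50 (0.002), -1.49 (0.002) and -1.47 (0.0026), and 796 probes in all, 553 lower and 243 higher in frozen embryos. The cause was not tested. FGB turned to 0.20 (adjusted p 0.95) with the sign of replicate 2 turned. SERPIND1 turned to 0.02 with dye as a covariate and to 0.09 without replicate 1, and F2 to -0.02 with arrays scaled to a common spread and to -0.13 without replicate 1. With each replicate left out, means ranged from -1.68 to -0.55 for FGB, from -1.44 to -1.06, -1.50 to -1.03, -1.49 to -1.04 and -1.47 to -0.91 for TFPI probes 1 to 4, from -0.48 to -0.23 for SERPINC1, from -0.31 to 0.09 for SERPIND1 and from -0.13 to 0.15 for F2. The clotting list's median ranged from -0.12 to -0.07, the probes called from 0 to 796, and those with an unadjusted p under 0.05 from 351 to 3720, against 1020 with all arrays. The last count was 434 of the 11420 probes left without the dimmer ones, where the list's median was 0.02 and FGB, SERPINC1 and SERPIND1 had no value, and 10458 of 43603 from the processed signals of replicates 1 and 3 alone. Each ratio is a difference within 1 array, so the test is paired by array as run, and no further replicate block applies.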
